A study of Homo sapiens with 6 samples.

Results

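The CADM, nectin and PVR genes encode immunoglobulin-like adhesion molecules of the cell surface, and the 9 genes of the family were taken from the deposited table by gene symbol, out of 60546 gene identifiers. They are CADM1, CADM2, CADM3, CADM4, NECTIN1, NECTIN2, NECTIN3, NECTIN4 and PVR. RNA-seq had been performed on HCT-116, an established human colon carcinoma cell line, in 3 libraries with the label GOLPH3 (P8, P12 and P13 in the titles of replicates 1 to 3) and 3 with the label Vector (P12, P11 and P13). According to the study's methods, both stable lines were made by infection with PMSCV, which carried the GOLPH3 cDNA in the HCT-116-PMSCV-GOLPH3 cells and no insert in the HCT-116-PMSCV-Vector cells, and the libraries of a label came from different generations of the same line. The labels give all 6 samples the same genotype, wild type, and the same treatment. The spread between libraries is therefore the spread within 1 line per label, and the p-values measure only this spread, which may be technical. The family was chosen because CADM1 was silent under 1 label, so the differences between the labels are descriptions for the members, and a member's call by a fit is counted without being read as a test.

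CADM proteins (nectin-like molecules) and nectins bind each other and themselves across the gap between neighbouring cells, without calcium. Nectins are tied to the actin cytoskeleton through afadin and start the assembly of adherens junctions together with cadherins, whereas CADM tails bind membrane skeleton proteins and PDZ scaffolds. PVR and NECTIN2 are also ligands of receptors on natural killer and T cells, and CADM1 is a ligand of CRTAM on the same cells. In epithelia CADM1 is known as a tumour suppressor that is often silenced, while PVR and NECTIN4 are often abundant on carcinoma cells.

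The deposited values are reads divided by a size factor per library, called normalized reads here, and the recovered reads totalled 15708846 to 21900764 per library. For a gene without reads the depth allows up to 3 reads (2.47 to 3.29 normalized reads, by library), which covers counting error only. The GOLPH3 transcript itself was not higher in the GOLPH3-labelled libraries, with 1630, 1272 and 1384 normalized reads against 1968, 1892 and 1472 (limma on log2(normalized reads + 1), log2 difference -0.31, standard error 0.27, adjusted p = 0.609), so its level does not tell the labels apart. The study reported from western blots, thus from protein, that its GOLPH3-overexpressing HCT-116 cells had been made, whereas the values here are RNA. The groups are named by their labels, and the identity of the cells was not tested further. Of 10 colon epithelial markers, EPCAM, KRT8, KRT18, KRT19 and CDX2 did not fall below 184 normalized reads in any library, whereas KRT20 had no reads in any library and VIL1, CDH17, LGALS4 and CEACAM5 had at most 10.3. A list of 10 genes known from HEK293 cells, chosen with earlier results of these data known, summed to 2.13 to 7.51 normalized reads in the GOLPH3-labelled libraries and to 8771 to 22262 in the Vector-labelled ones. All 10 were lower without overlap in the former, beside 12.8% of all genes fitted. Since the list was chosen with earlier results known, nothing is read from this count. In the GOLPH3-labelled libraries 6 of the 10 had no read at all (IRS4, UCHL1, NEFM, HAND1, HOXD13 and ZEB2) and 9 had at most 3 reads per library.

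CADM1 was abundant under 1 label and silent under the other. It had 0 reads in each of the 3 GOLPH3-labelled libraries and 1093, 633 and 1390 normalized reads in the 3 Vector-labelled libraries. The groups did not overlap, and the Vector-labelled libraries differed among themselves by 2.20-fold, with replicate 2 (P11) the lowest and replicate 3 (P13) the highest. Against the limit of 3 reads averaged over the GOLPH3-labelled libraries, CADM1 was at least 350-fold lower there than the mean of 1039 ± 381 normalized reads (SD, n = 3) in the Vector-labelled ones. The lowest library labelled Vector was at least 196-fold above the highest such limit of a GOLPH3-labelled library (3.22 normalized reads, replicate 1). Fewer cells of a type and less RNA per cell cannot be told apart in such bulk libraries. The HEK293-like list above was high and low in the same libraries as CADM1, and its part in the CADM1 difference was not tested. Its sum and 6 of its 10 genes also had the order of CADM1 over the Vector-labelled libraries, and the other 4 (NEFM, NEFL, LIN28B and ZEB2) did not. The share of all genes with this order was not computed, so nothing is read from these counts. CADM1 (ENSG00000182985) spans chromosome 11 from 115169218 to 115504957 on the minus strand (GENCODE 29, GRCh38). Its exons overlap no exon of another gene, and the 3 non-coding genes inside its span had at most 1.10 normalized reads.

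**Figure D1:**
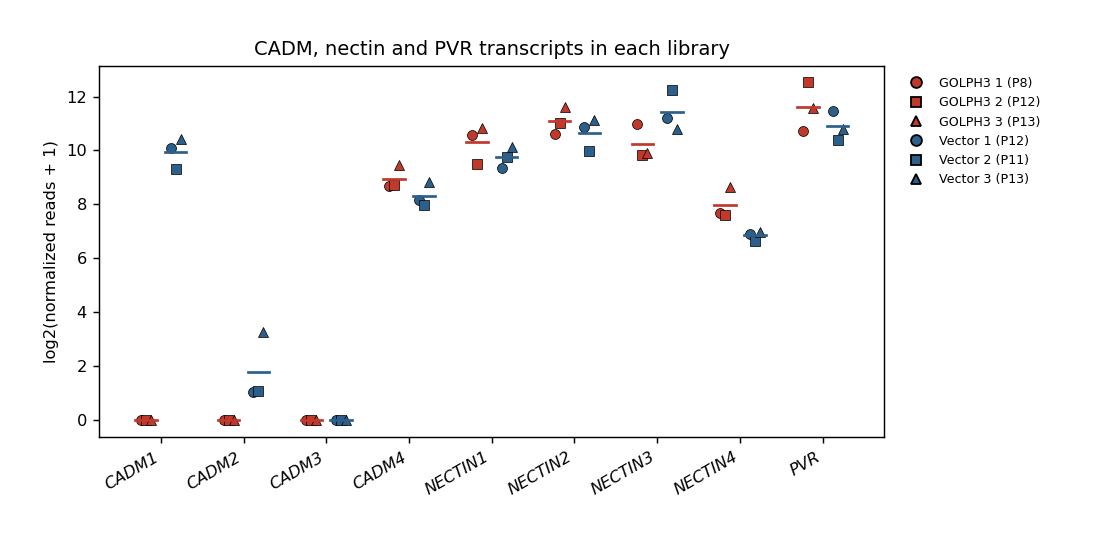
Level of each family member as log2(normalized reads + 1), with 1 point per library and a bar at the mean of each label. CADM1 has 3 points at 0 in the GOLPH3-labelled libraries and 3 points from 633 to 1390 normalized reads in the Vector-labelled ones, while CADM3 is at 0 throughout and the 4 nectins, CADM4 and PVR are present in all 6 libraries.

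The other CADM genes did not share this pattern. CADM2, a synaptic adhesion molecule of the nervous system (chromosome 3, 84958981 to 86074429), had 0 reads in the GOLPH3-labelled libraries and 1.03, 1.10 and 8.58 normalized reads in the Vector-labelled ones. Only Vector replicate 3, with 10 reads, lay above the limit of 3 reads, so no fold is given. CADM3, which is also mainly a neural gene (chromosome 1, 159171609 to 159203313), had 0 reads in all 6 libraries, and so did its antisense neighbour CADM3-AS1. CADM4, a regulator of growth factor receptors at cell contacts (chromosome 19, 43622368 to 43639839), was the CADM gene present in every library. It had 413, 418 and 697 normalized reads in the GOLPH3-labelled libraries and 285, 251 and 449 in the Vector-labelled ones. The ranges overlapped, and the means were 509 ± 162 and 328 ± 106 (SD, n = 3 each), a ratio of 1.55. The log2 difference was 0.63 (standard error 0.35).

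NECTIN4, an embryonic nectin that reappears on carcinomas (chromosome 1, 161070995 to 161089599), was the least abundant nectin. It had 206, 195 and 400 normalized reads in the GOLPH3-labelled libraries and 120, 99.7 and 124 in the Vector-labelled ones. The groups did not overlap, although GOLPH3 replicate 3 (P13) stood well above the other 2 libraries of its label. The ratio of the means was 2.33, with 267 ± 115 against 115 ± 13.3 (SD, n = 3 each), and the log2 difference was 1.14 (standard error 0.38).

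NECTIN3, the nectin with the strongest heterophilic binding to NECTIN1 (chromosome 3, 111070071 to 111275563), was the only nectin with a lower mean in the GOLPH3-labelled libraries. It had 2005, 921 and 962 normalized reads there and 2367, 4902 and 1792 in the Vector-labelled ones. The groups overlapped, because GOLPH3 replicate 1 (P8) lay above Vector replicate 3 (P13), and Vector replicate 2 (P11) was 2.74-fold above the lowest library of its label. The means were 1296 ± 615 and 3021 ± 1655 (SD, n = 3 each), a ratio of 0.43, and the log2 difference was -1.18 (standard error 0.41). The antisense gene NECTIN3-AS1, which overlaps the NECTIN3 span but none of its exons, had at most 25.7 normalized reads in any library.

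NECTIN1 and NECTIN2 had overlapping groups, and the highest and lowest libraries of a label differed by 1.68- to 2.51-fold. NECTIN1, an entry receptor of herpes simplex virus (chromosome 11, 119623408 to 119729084), had 1539, 730 and 1832 normalized reads in the GOLPH3-labelled libraries and 660, 865 and 1111 in the Vector-labelled ones (log2 difference 0.57, standard error 0.37). Its lowest library was the one at P12 under both labels. NECTIN2, a ligand of the immune receptors TIGIT, CD226 and PVRIG (chromosome 19, 44846175 to 44889228), had 1554, 2095 and 3095 against 1869, 1011 and 2229 normalized reads (log2 difference 0.42, standard error 0.36). Its highest library was the one at P13 under both labels.

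PVR, the poliovirus receptor and a ligand of TIGIT, CD226 and CD96 (chromosome 19, 44643798 to 44663583), had 1689, 5903 and 3077 normalized reads in the GOLPH3-labelled libraries and 2819, 1348 and 1802 in the Vector-labelled ones. The GOLPH3-labelled libraries differed by 3.50-fold among themselves, and the groups overlapped. The log2 difference was 0.72 (standard error 0.43), and the highest library was the one at P12 under both labels. PVR shares 121 exonic bases on the same strand with CEACAM19, which had 58.1 to 212.8 normalized reads, and how the counting treated reads in shared bases is not given in the sources used here.

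The limma fit took in the 26536 genes that reached 1 normalized read in 3 or more libraries, and its adjusted p was under 0.05 for 5.07% of these, 0.953% higher and 4.12% lower in the GOLPH3-labelled libraries. CADM3 was the member that did not pass this filter, and CADM1 and CADM2 passed it through the Vector-labelled libraries alone. Of the 8 members fitted, CADM1 was past the threshold. The groups did not overlap for CADM1, CADM2 and NECTIN4, where 22.0% of all genes fitted had groups that did not overlap (9.2% higher and 12.8% lower under the label GOLPH3). Since the family was chosen on this contrast, nothing is read from these counts. Within the pair of libraries at P12 the log2 differences were -10.10 for CADM1, -1.02 for CADM2, -1.36 for NECTIN3, 0.55 for CADM4, 0.15 for NECTIN1, 0.16 for NECTIN2, 0.69 for NECTIN4 and 1.07 for PVR. Within the pair at P13 they were -10.44, -3.26, -0.90, 0.63, 0.72, 0.47, 1.68 and 0.77 in the same order. All 8 members thus had the same sign in both pairs, and nothing is read from this either. The signs of CADM1 and CADM2 were fixed by their 0 reads under the label GOLPH3. The share of all genes with the same sign in both pairs was not computed.

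The levels of different members can be compared roughly per length of annotated exon. This length counts all annotated exons of a gene, 11017 bases for CADM1 and 2246 for CADM4. A gene that leaves some of its annotated exons unused has its level understated, and which exons were used was not examined. In the GOLPH3-labelled libraries the order was PVR (1011 ± 610 normalized reads per kb of exon, SD, n = 3), NECTIN2 (600 ± 209), CADM4 (227 ± 72.3), NECTIN3 (210 ± 99.4), NECTIN1 (178 ± 74.1) and NECTIN4 (76.3 ± 32.9). NECTIN2 and CADM4 were the neighbours in this order whose ranges did not overlap. In the Vector-labelled libraries the order per kb of exon was PVR (565 ± 214), NECTIN3 (488 ± 268), NECTIN2 (455 ± 167), CADM4 (146 ± 47.1), NECTIN1 (114 ± 29.4), CADM1 (94.3 ± 34.6) and NECTIN4 (32.8 ± 3.79). There the ranges of NECTIN2 and CADM4 and those of CADM1 and NECTIN4 did not overlap. CADM1 thus made up 3.27% to 6.63% of the family's summed level per kb in the Vector-labelled libraries. PVR held 28.9% to 61.6% of the sum in the GOLPH3-labelled libraries and 21.8% to 39.5% in the Vector-labelled ones, and NECTIN3 held 5.47% to 19.5% and 15.2% to 45.2%. The largest share of NECTIN3 under each label was in the library that was at neither P12 nor P13.

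**Figure D2:**
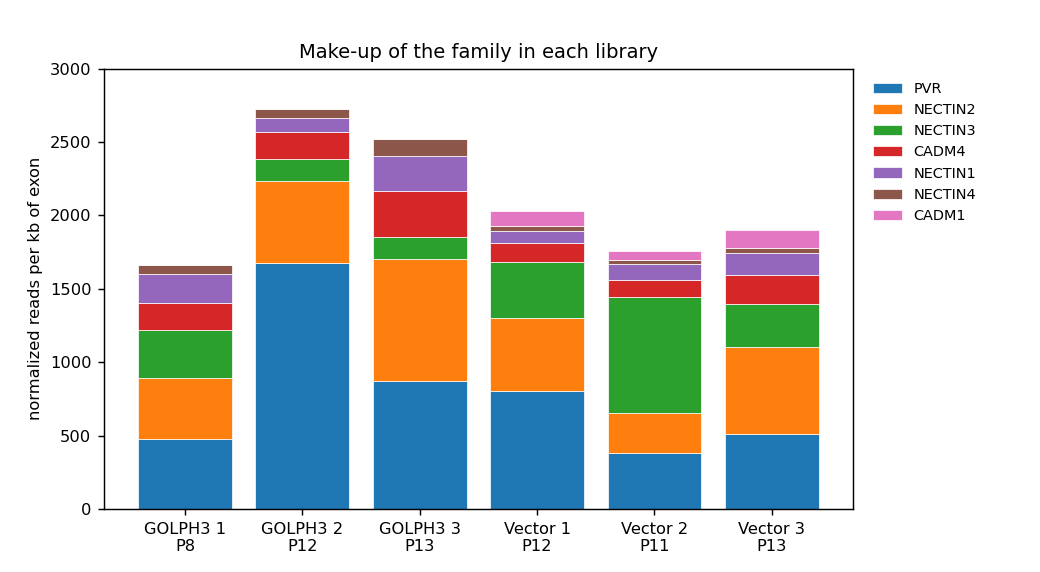
Stacked level of each member in normalized reads per kb of exon, with 1 bar per library. The sums run from 1662 in GOLPH3 replicate 1 to 2722 in GOLPH3 replicate 2, where PVR reaches 1678, and CADM1 is seen in the 3 Vector-labelled libraries alone.

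The numbers after P in the titles offered a comparison that the choice of the family did not use. The 2 libraries at P12 were compared with the other 4 in all genes, with the label as a term, and so were the 2 libraries at P13. In both comparisons 0 genes had an adjusted p under 0.05 with limma (0.0% of 26536 genes) or with edgeR (0 of 18069). At an unadjusted p under 0.05 limma counted 7.24% of all genes at P12 and 12.5% at P13, and edgeR 7.67% and 15.4%. PVR was higher at P12, with means of 4361 against 1979 normalized reads and a log2 difference of 1.11 (standard error 0.33, limma unadjusted p = 0.00704, adjusted p = 0.472), although Vector replicate 1 at P12 lay below GOLPH3 replicate 3 at P13. NECTIN1 was lower at P12 without overlap (means 695 and 1337 normalized reads, log2 difference -0.89, standard error 0.30, limma unadjusted p = 0.0136, adjusted p = 0.533). At P13, CADM4 and NECTIN2 were higher without overlap, by 0.74 on the log2 scale for each (standard errors 0.24 and 0.29, limma adjusted p = 0.355 and 0.366). The share of all genes without overlap in these splits was not computed, so nothing is read from the lack of overlap. Of the 8 members fitted, those named are the 2 in each comparison with a limma unadjusted p under 0.05. These 4 differences did not pass the correction for all genes, with adjusted p from 0.278 to 1.0 over 11 alternatives.

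Promoter sequences are shown for 4 members, so that their base composition can be seen beside their reads. They are the silent CADM3, CADM4 with the most CpG dinucleotides, and NECTIN3 and NECTIN4, whose ratios of means were the lowest and the highest among the members with reads in every library. RefSeq promoter windows (GRCh38.p14) were found for 6 of the 9 members, and CADM1, CADM2 and NECTIN1 had none. The 250 bases before the start held 30 CpG dinucleotides in CADM4, 27 in NECTIN3 and in PVR, 19 in NECTIN2, 16 in CADM3 and 6 in NECTIN4, against a median of 11 and quartiles of 3 and 23 over 35116 promoters. The silent gene CADM3 thus had more CpG dinucleotides than the median promoter, and NECTIN4, which was transcribed in every library, had fewer. The stretches below run 5′ to 3′ on the strand of the gene, with CpG dinucleotides in capitals. They hold no annotated exon, since a stretch stops where annotated exon begins, whereas the counts above cover all 250 bases. The CADM4 stretch is the full 250 bases. Those of CADM3, NECTIN3 and NECTIN4 are 244, 177 and 209 bases, with 15, 16 and 5 CpG dinucleotides. The NECTIN3 stretch precedes the RefSeq start used here but lies within the annotated gene, after the first exon of other transcripts.
CADM3 (chr1:159171365-159171608, plus strand): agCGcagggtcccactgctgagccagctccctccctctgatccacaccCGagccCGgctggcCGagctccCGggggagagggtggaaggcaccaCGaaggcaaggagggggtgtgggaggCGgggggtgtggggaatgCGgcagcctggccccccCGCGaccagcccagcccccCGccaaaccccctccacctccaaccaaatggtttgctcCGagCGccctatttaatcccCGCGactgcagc
CADM4 (chr19:43639851-43640100, minus strand): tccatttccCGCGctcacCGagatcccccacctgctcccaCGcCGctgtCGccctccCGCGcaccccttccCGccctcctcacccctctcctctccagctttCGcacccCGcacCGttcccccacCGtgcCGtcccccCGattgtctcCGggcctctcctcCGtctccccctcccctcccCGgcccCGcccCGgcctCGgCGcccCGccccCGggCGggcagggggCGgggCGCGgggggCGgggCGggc
NECTIN3 (chr3:111071566-111071742, plus strand): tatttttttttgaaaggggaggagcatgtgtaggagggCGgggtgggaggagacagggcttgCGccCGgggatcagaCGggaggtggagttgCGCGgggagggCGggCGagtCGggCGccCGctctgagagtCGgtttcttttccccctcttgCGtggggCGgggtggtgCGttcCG
NECTIN4 (chr1:161089600-161089808, minus strand): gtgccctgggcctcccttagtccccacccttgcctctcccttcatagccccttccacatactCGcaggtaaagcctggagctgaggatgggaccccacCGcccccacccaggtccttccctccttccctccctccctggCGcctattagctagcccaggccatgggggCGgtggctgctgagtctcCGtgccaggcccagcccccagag
The E-box CACCTG, the letters bound by ZEB and Snail factors, was searched for on both strands, where it reads CAGGTG on the other strand. It was found in the 250 bases of CADM4, NECTIN4 and PVR, starting 222, 38 and 187 bases before the start, and not in those of CADM3, NECTIN2 and NECTIN3. The NECTIN4 match lies after the 209 bases printed, in the part left out because annotated exon begins there. Of all promoters of this length, 17.5% held it. These matches are descriptions of the letters in the window.

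The partners of the family were examined with a list of 47 genes, of which 46 could be fitted. Of these, 3 had an adjusted p under 0.05 with limma, EPB41L3 and GRIP1 lower and ITGB4 higher in the GOLPH3-labelled libraries. This is 6.52% of the list, beside 5.07% of all genes, and the median log2 difference was -0.20 over the list and 0.02 over all genes. At an unadjusted p under 0.05 limma counted 12 of the list and 17.6% of all genes. The groups did not overlap for 14 of the 47 genes, 13 of them lower in the GOLPH3-labelled libraries, beside 22.0% of all genes fitted (12.8% lower and 9.2% higher).

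The scaffolds of the CADM tail held both of the genes that fell. EPB41L3, the adaptor that ties the CADM1 tail to the membrane skeleton, had 0 reads in each of the 3 GOLPH3-labelled libraries and 535, 299 and 885 normalized reads in the Vector-labelled ones. Like CADM1, it was lowest in Vector replicate 2 and highest in Vector replicate 3, an order whose share over all genes was not computed. It was at least 193-fold lower against the limit of 3 reads (limma adjusted p = 2.29e-06). Since it passed the filter on low values through the Vector-labelled libraries alone, this p adds nothing to the levels, and the gene could not be fitted when reads were asked for in every library. GRIP1, a PDZ scaffold of synapses and epithelia, had 6.44, 4.12 and 9.61 normalized reads in the GOLPH3-labelled libraries and 135, 55.9 and 145 in the Vector-labelled ones. Its log2 difference was -3.82 (standard error 0.56, limma adjusted p = 0.0011, from 2.41e-10 to 0.0371 over 14 alternatives). MPP1, a membrane-associated guanylate kinase homologue, had 208, 191 and 199 against 437, 356 and 589 normalized reads. Its groups did not overlap, and it stayed just outside the threshold (log2 difference -1.17, standard error 0.32, limma adjusted p = 0.0573), which it passed with edgeR and DESeq2 (adjusted p = 0.0477 and 0.0111). Of the 19 scaffold genes fitted, limma called 2 (10.5%, beside 5.07% of all genes), and the median log2 difference was -0.35. After adjustment edgeR called 3 of 18 and DESeq2 4 of 19, and at an unadjusted p under 0.05 each of the 3 tools counted 5. The other 3 relatives of EPB41L3 did not pass with limma, with log2 differences of -0.76 for EPB41, 0.47 for EPB41L1 and -0.45 for EPB41L2 (limma adjusted p = 0.188, 0.577 and 0.438). The HEK293-like list was lower in the same libraries as EPB41L3 and GRIP1, and its part in these differences was not tested.

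Receptors and integrins that associate with the family on the same cell included the gene that rose. ITGB4, the laminin-binding integrin subunit of hemidesmosomes, had 6975, 8823 and 13315 normalized reads in the GOLPH3-labelled libraries and 2752, 1773 and 3376 in the Vector-labelled ones. Every GOLPH3-labelled library lay above every Vector-labelled library, and the ratio of the means was 3.68 (log2 difference 1.88, standard error 0.34, limma adjusted p = 0.00519). Without GOLPH3 replicate 2 it no longer passed (log2 difference 1.92, limma adjusted p = 0.0984). Its partner subunit ITGA6 and the receptor kinase ERBB3 had log2 differences of 0.91 and 0.85 (standard errors 0.40 and 0.35), with overlapping groups (limma adjusted p = 0.256 and 0.218). Of the 9 genes of this group, limma called 1 (11.1%, beside 5.07% of all genes), and the median log2 difference was 0.68. After adjustment edgeR called 1 of 7 and DESeq2 1 of 9, and at an unadjusted p under 0.05 limma, edgeR and DESeq2 counted 3, 2 and 3. The summed colon epithelial markers were also higher in the GOLPH3-labelled libraries, at 59744 to 131720 against 28228 to 40242 normalized reads, and their part in the ITGB4 difference was not tested. Keratins carried most of that sum, and CDX2 had the lower mean there, 289 against 499 normalized reads. Higher without overlap were 5 of the 10 markers (EPCAM, KRT8, KRT18, KRT19 and LGALS4), beside 9.2% of all genes fitted. For LGALS4 the 2.13 normalized reads of GOLPH3 replicate 3 and the 2.06 of Vector replicate 1 lay under the limit of 3 reads. Its lack of overlap is therefore within counting error.

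On the afadin side, limma, edgeR and DESeq2 each called 0 of the 7 genes after adjustment (3, 2 and 3 at an unadjusted p under 0.05), and the median log2 difference was -0.69. AFDN, which encodes afadin, had means of 2577 and 2976 normalized reads (log2 difference -0.22, limma adjusted p = 0.731). RAP1A, a small GTPase that binds afadin, and SSX2IP, an afadin- and actinin-binding protein, had log2 differences of -0.72 and -0.83 (limma adjusted p = 0.203 and 0.263).

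Of the 5 immune receptor genes, which belong to lymphocytes, CRTAM had at most 1 read in any library and was not fitted. TIGIT had at most 7.67 normalized reads, CD226 11.7 to 74.5 and PVRIG 1.65 to 20.8. After adjustment limma called 0 of the 4 it fitted, edgeR 0 of 2 and DESeq2 0 of 4 (1, 0 and 1 at an unadjusted p under 0.05, limma adjusted p = 0.663 for TIGIT, 0.864 for CD226 and 0.176 for PVRIG). The 7 shedding proteases, which release the outer parts of CADM1 and nectins from the cell surface and cleave the remaining stubs, were present under both labels, and limma, edgeR and DESeq2 called 0 of them, also at an unadjusted p under 0.05. ADAM10 had means of 2315 and 2417 and ADAM17 of 1553 and 1259 normalized reads (log2 differences -0.11 and 0.27, limma adjusted p = 0.921 and 0.765). Among the γ-secretase genes the smallest p belonged to NCSTN, PSENEN and PSEN2, with log2 differences of -0.24, 0.82 and 0.28 (limma adjusted p = 0.681, 0.695 and 0.706).

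**Figure D3:**
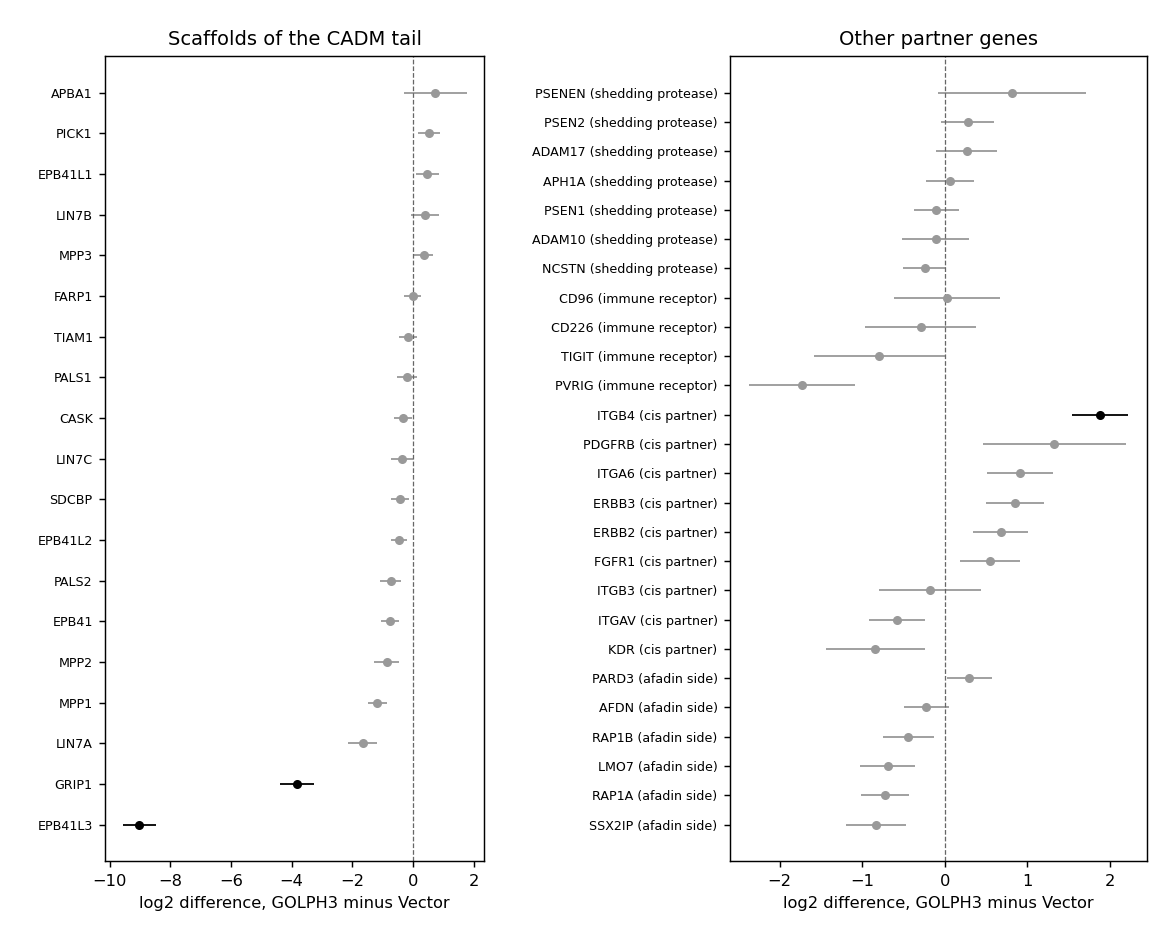
Log2 difference (GOLPH3 minus Vector) of 45 of the partner genes fitted, with bars of 1 standard error, split into the scaffolds of the CADM tail on the left and the other groups on the right, on separate scales. Black points have a limma adjusted p under 0.05, and they are EPB41L3, GRIP1 and ITGB4.

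The genes most like each member were found by the root mean square difference between log2(normalized reads + 1) profiles over the 6 libraries, each centred on its own mean, among 12655 genes outside the family with a mean of at least 50 normalized reads. For CADM1 they were HOXD13 (0.17), UCHL1 (0.29), SPART (0.35), PCDH9 (0.36) and TLE4 (0.36), all with 0 reads in every GOLPH3-labelled library. HOXD13, a posterior homeobox gene, had 804, 527 and 1340 normalized reads in the Vector-labelled libraries, and UCHL1, a neuronal ubiquitin hydrolase, had 1173, 415 and 1757. HOXD13 and UCHL1 also belong to the HEK293-like list. EPB41L3 ranked 8 in this order, with a root mean square difference of 0.48. Both CADM1 and EPB41L3 had 0 reads under the label GOLPH3, so nothing is read from this rank. In all, 94 genes without a read under the label GOLPH3 reached 50 or more normalized reads in each Vector-labelled library, and 0 genes had the reverse pattern. With the lowest library labelled Vector at least as high as that of CADM1, 2 genes had 0 reads in every GOLPH3-labelled library, CADM1 included.
The nearest profiles of the other members all had reads under both labels. CADM4 was closest to STARD3 (0.05), NUMBL (0.05), AKT1 (0.07), ZNF574 (0.07) and XYLT2 (0.07), and NECTIN1 to CBX8 (0.08), ZNF341 (0.08), ACSF2 (0.09), PDGFRL (0.09) and FHOD1 (0.09). NECTIN2 was closest to MIIP (0.07), PRKCSH (0.07), SEZ6L2 (0.09), HIGD2A (0.09) and SLC35E4 (0.09). For NECTIN3 they were TLR3 (0.12), KLRA1P (0.14), TMED5 (0.15), ZNF92 (0.16) and SLC33A1 (0.18), which were all highest in Vector replicate 2. NECTIN4 was closest to SEMA4B (0.11), EPHA1 (0.12), OSBPL7 (0.13), CCDC187 (0.13) and TPCN1 (0.14), and PVR to ABTB2 (0.11), INPP1 (0.12), AJUBA (0.13) and NFE2L1 (0.13), which were all highest in GOLPH3 replicate 2. CADM2, with at most 10 reads, was closest to HOXA-AS3 (0.32), GPR176 (0.32), HOXA-AS2 (0.33), HOXA6 (0.34) and FOXF1 (0.34). Over 6 libraries such likeness is a description, and the profiles share the same libraries and depth.

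**Figure D4:**
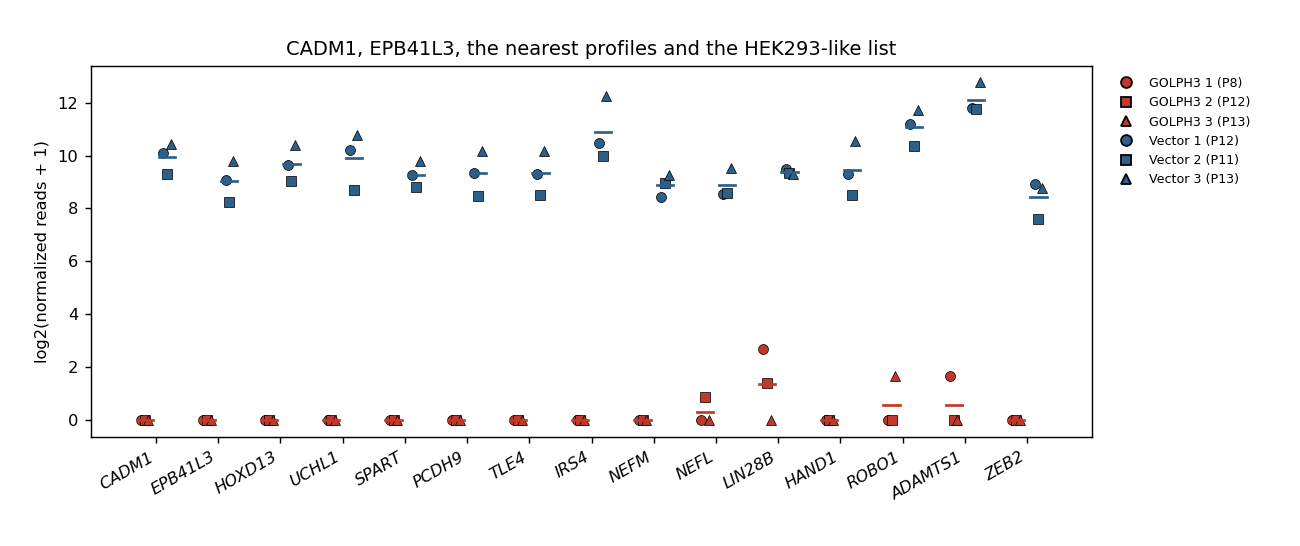
Level as log2(normalized reads + 1) of CADM1, its scaffold EPB41L3, the 5 nearest profiles and the genes of the HEK293-like list not among them, with 1 point per library and a bar at the mean of each label. CADM1, EPB41L3 and the 5 nearest profiles sit at 0 in the 3 GOLPH3-labelled libraries, and CADM1 lies at 633 to 1390 normalized reads in the 3 Vector-labelled libraries.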

How the data were processed

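Sequenced RNA came from 3 samples labelled as HCT-116 cells with PMSCV-GOLPH3 and 3 labelled as carrying the empty PMSCV vector, and groups were taken from the titles. The deposited values (signal) give 1 number for each gene in each library. The submitters' processing notes name fastp 0.20.0, HISAT2 2.1.0, Cufflinks, featureCounts 1.6.1, DESeq2 and the build GRCh38, without order, and the annotation is not given in the sources used here. All nonzero values (100.0% in each library, within 0.05 of a read) were whole multiples of a step of 0.8246 to 1.0955, so the authors had divided reads by a size factor per library. Of 60590 rows, 44 repeated an identifier and were added to it. Coordinates and exon lengths came from GENCODE 29, which held 96.4% of the identifiers.

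limma 3.58.1 (R 4.3.3) was fitted to log2(value + 1) with a trend of the prior variance on the mean, for genes with at least 1 in at least 3 libraries, with Benjamini-Hochberg adjustment over all genes tested. Fold changes of low genes are understated on this scale. The script was tested on simulated data. Partner genes named are those with an adjusted p under 0.05 and the 3 with the smallest p per group, and other genes named (relatives of EPB41L3, AFDN, ADAM10 and ADAM17) were chosen after their values were seen. For each member, the 5 genes with the nearest profile are named. A partner gene and a gene near PVR that these rules pick are not reported here. The members and lists were chosen with earlier results of these data known. The alternatives were quantile normalization, other filters, a pseudocount of 0.1, DESeq2 1.42.0 and edgeR 4.0.16 on recovered reads, replicate or P number as a block, and each library left out. The comparisons of P12 and P13 with the other libraries were added after seeing the data. No 2 libraries of a label agreed within sampling noise (chi-square per degree of freedom at least 65.35).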

Additional observations from a re-analysis of the deposited data

How the results depend on the processing

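The choice of the family fixes the call of CADM1, so its recurrence is no sign of stability. CADM1 was the member past the threshold with limma as described, with edgeR, without a filter, with a pseudocount of 0.1, under quantile normalization, with the replicate block and in the 6 fits that each left out a library. With at least 1 normalized read in every library CADM1 was not tested, and 0 members were called, with 405 of 18996 genes in place of 1346 of 26536. DESeq2 called 2 members (CADM1 and NECTIN4) and 5 partner genes in place of 3. Over the 36340 genes it fitted, its split was 606 higher and 1388 lower, against 253 and 1093 of 26536 with limma. With the P number as a block, which leaves 1 residual degree of freedom, 5 members (CADM1, CADM4, NECTIN3, NECTIN4 and PVR), 18 partner genes and 6082 of all genes were called. The replicate block gave 1 member, 3 partner genes and 1081 of all genes, and changed no call of these members and partners. Replicate numbers did not pair the libraries, since the deviations of same-numbered libraries correlated at -0.344, -0.217 and 0.41. The pairs with the same P number correlated at 0.396 (P12) and 0.41 (P13, which is also the last of the replicate pairs). The highest correlation, 0.487, was that of GOLPH3 replicate 1 (P8) with Vector replicate 2 (P11), which share neither number. When a library was left out, with a filter of at least 2 libraries, 1 member and 2 to 4 partner genes were called, and 581 (without GOLPH3 replicate 2) to 1337 of all genes, with 807 without GOLPH3 replicate 3, 837 without Vector replicate 1 and 717 without Vector replicate 3. These fits took in 28322 to 28772 genes, and their filter was chosen after seeing the data. Leaving out a library from the P12 comparison gave 0 to 2 of all genes, with 2 without GOLPH3 replicate 3. The sign of the difference of each of the 8 members held in every alternative that could fit it. For CADM1 and CADM2, without a read under the label GOLPH3, this was fixed in advance. Among the others NECTIN2 came closest to 0, between 0.08 and 0.66 on the log2 scale. The sign of 2 low partner genes turned. CD226 had 0.01 with the P number block and -0.75 to 0.35 when a library was left out, and TIGIT had 0.37 with the P number block. The causes were not tested. At this depth CADM2, CADM3, CRTAM and TIGIT lie near the limit of 3 reads.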
